A study of Mus musculus with 16 samples.

Results

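The 10 rows of the deposited table that carry an aquaporin symbol (AQP1, AQP2, AQP3, AQP4, AQP5, AQP6, AQP7, AQP8, AQP9 and AQP11), of 18132 genes in all, were followed over 16 mouse kidneys. They were chosen by symbol and not by any value, though with earlier results of these data known. Symbols are written in capitals, as in the table. Biotin-labeled RNA of each whole kidney was hybridized to an Illumina BeadChip, on which the brightness of a gene's probes follows the amount of its transcript. In 12 mice the left ureter had been closed with a clip 24 h before harvest (unilateral ureteral obstruction, UUO), 7 of them wildtype (WT) and 5 IL-33-deficient. The other 4 kidneys were untreated controls, 2 WT and 2 IL-33-deficient, so the control groups had no sham operation. The obstruction can therefore not be told apart from the anesthesia, surgery and analgesia that came with it. All mice were on a C57BL/6J BomTac background (C57/BL6 in the labels) and 8 weeks old unless differently stated, and the IL-33-deficient strain, the source of its own controls, had been backcrossed to it for 10 generations. The obstructed kidneys came in 2 sets, set 1 with 3 WT and 2 IL-33-deficient kidneys and set 2 with 4 WT and 3 IL-33-deficient kidneys, and the set of the controls is not labeled. Arrays are named by the number in their label.

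Aquaporins are membrane channels that let water, and in some members glycerol or other small solutes, cross cells along the osmotic gradient. In the kidney, the proximal tubule and thin descending limb take up water through aquaporin 1, while principal cells of the collecting duct take it up through aquaporin 2 on the urine side and aquaporins 3 and 4 on the blood side. Vasopressin acts on its receptor of principal cells, raises cAMP, brings aquaporin 2 vesicles to the membrane and raises transcription of its gene. Loss of collecting duct water channels is a known feature of obstructed kidneys, which concentrate urine poorly.

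IL33, the deleted gene, lay between 6.80 and 7.02 on the log2 intensity scale on all 7 IL-33-deficient arrays, against 7.62 and 8.02 in WT controls and 8.39 to 9.57 in obstructed WT kidneys. HAVCR1, the kidney injury molecule of damaged tubules, was at 7.07 to 7.37 in the 4 controls and at 12.84 to 13.95 in 11 of the 12 obstructed kidneys. WT kidney 3820 stood apart from those with a HAVCR1 of 10.42, and it and WT kidney 3818, both of set 1, lay nearest to the controls for several aquaporins. The log2 differences that rest on this pair are given with and without it, a choice made after the data were seen. Array medians lay between 132 and 133. The lowest intensity of the table, 95.5, was taken as background, though the deleted IL33 read higher, at 6.80 to 7.02 on the log2 scale. Differences of dim genes are therefore compressed.

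The promoters of 4 of the 5 aquaporins whose transcripts fell in at least 1 genotype are shown, since transcription of AQP2 is a step that vasopressin is known to set and the others changed with it. All 10 aquaporins matched a RefSeq gene of build GRCm38.p6 and 9 had a promoter entry. Each is the 250 bases before the annotated start, 5′ to 3′ on the strand of the gene. Capitals mark matches, on either strand, to 5 motifs. The core of the cAMP response element was searched for as the letters TGACG. Zinc finger factors such as GATA3 were given the letters AGATAA, and the box that places the start of transcription the letters TATAAA. The GC box of factor Sp1 was written GGGCGG. Nuclear receptors were given the letters AGGTCA.
AQP1, chr6:55336049-55336298, plus strand: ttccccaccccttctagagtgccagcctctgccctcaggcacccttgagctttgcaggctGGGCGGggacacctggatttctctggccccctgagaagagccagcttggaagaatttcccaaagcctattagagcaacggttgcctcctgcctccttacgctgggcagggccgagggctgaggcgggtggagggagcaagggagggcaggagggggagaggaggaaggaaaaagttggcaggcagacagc
AQP2, chr15:99578806-99579055, plus strand: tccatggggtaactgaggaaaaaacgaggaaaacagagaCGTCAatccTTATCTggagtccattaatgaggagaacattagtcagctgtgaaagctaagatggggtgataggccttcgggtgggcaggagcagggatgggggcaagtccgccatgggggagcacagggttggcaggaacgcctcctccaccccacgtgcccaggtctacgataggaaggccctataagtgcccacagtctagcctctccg
AQP3, chr4:41098184-41098433, minus strand: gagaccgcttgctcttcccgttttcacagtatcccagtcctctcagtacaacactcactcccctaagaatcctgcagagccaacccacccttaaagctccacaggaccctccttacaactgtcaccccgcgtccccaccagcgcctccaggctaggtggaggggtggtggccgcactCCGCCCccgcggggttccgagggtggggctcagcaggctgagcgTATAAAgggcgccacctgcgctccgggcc
AQP11, chr7:97738248-97738497, minus strand: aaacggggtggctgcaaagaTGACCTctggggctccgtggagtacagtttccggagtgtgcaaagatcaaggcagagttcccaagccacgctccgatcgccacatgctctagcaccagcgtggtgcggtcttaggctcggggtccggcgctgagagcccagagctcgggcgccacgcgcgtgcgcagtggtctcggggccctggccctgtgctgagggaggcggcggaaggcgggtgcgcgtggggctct

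The AQP2 promoter held the cAMP core, read on the opposite strand and beginning 211 bases before the start. It also held the motif of GATA factors (AGATAA), not particular to GATA3, beginning 202 bases before the start. TGACG was in 17.8% and AGATAA in 9.99% of the 32851 promoters of the table, counted over the same 250 bases and both strands. AQP3 held a TATA box 29 bases before its start, a motif of 12.4% of promoters, and a GC box 73 bases before it, and AQP1 held a GC box 190 bases before its start. GGGCGG was in 32.7% of promoters. AQP11 held the nuclear receptor motif 230 bases before its start, a motif of 14% of promoters. No matches overlapped, and none of the 5 motifs was in all 4 promoters. These are matches of letters and were not tested for binding. AQP2, AQP5 and AQP6 are direct neighbors on chromosome 15 in the RefSeq annotation, with 0 annotated genes starting between them. Of these 3 neighbors AQP2 alone passed the test after obstruction. AQP5 and AQP6 lay at or near background on every array, where a fall would be hard to see. Whether AQP2 changed apart from its neighbors can therefore not be told.

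The water channels of the collecting duct were lower in obstructed than in untreated kidneys. In WT kidneys 4 of the 10 aquaporins fell (AQP2, AQP3, AQP4 and AQP11) and none rose, where 8.22% of all genes fell at the same threshold, an adjusted p of 0.05 in limma. In IL-33-deficient kidneys these 4 and AQP1 fell, 5 of 10, where 11.2% of all genes fell. The median log2 change was -0.42 over the 10 aquaporins in WT and -0.66 in IL-33-deficient kidneys, beside 0.00 over all genes in both. The log2 changes of the 2 comparisons rest on different kidneys. Their standard errors and p-values are not independent, since all 4 groups shared a single limma fit and its spread. Without WT kidney 3820, the standard error of AQP4 in IL-33-deficient kidneys was 0.14 instead of 0.27.

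**Figure D1:**
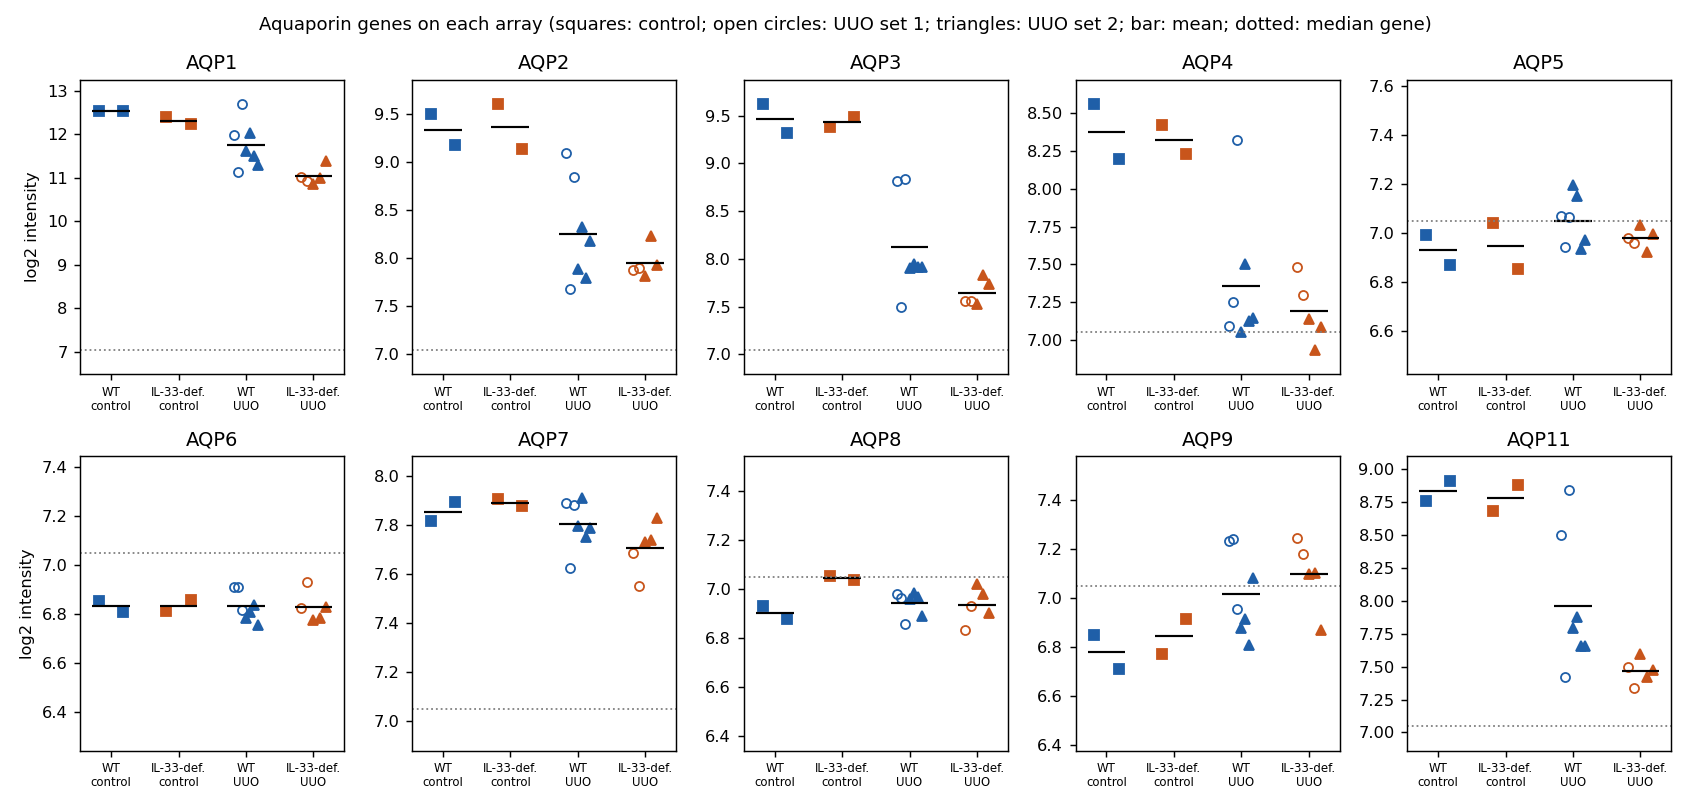
Each panel plots 1 aquaporin, with log2 intensity on the y axis (a separate scale per panel) and the 4 groups on the x axis. Squares are controls, open circles obstructed kidneys of set 1, triangles those of set 2, bars group means, and the dotted line the median gene. The group means of AQP1, AQP2, AQP3, AQP4 and AQP11 are lower after UUO, though WT kidney 3820 lies above both WT controls for AQP1, while AQP5, AQP6, AQP8 and AQP9 stay near the median gene in every group.

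AQP3, the glycerol-permeable channel of the basolateral membrane, fell most. Its log2 intensity was 9.62 and 9.32 in WT controls and 9.38 and 9.48 in IL-33-deficient controls. After UUO the 7 WT kidneys ran from 7.50 over a median of 7.92 to 8.84, and the 5 IL-33-deficient kidneys read 7.56, 7.56, 7.53, 7.83 and 7.74. Every obstructed kidney lay below every control. The log2 fold change was -1.35 ± 0.27 (SE; 7 against 2 kidneys; 2.54-fold lower) in WT, with an adjusted p of 0.00387 from limma, and -1.79 ± 0.28 (5 against 2; 3.45-fold lower; adjusted p = 0.000365) in IL-33-deficient mice. AQP3 was also the member whose call held most often: in IL-33-deficient kidneys it held in all 27 alternatives, and in WT in 25 of 27, being lost without WT control 3811 and with set 1 alone.

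AQP2, the vasopressin-regulated channel of the urine side, read 9.49 and 9.18 in WT controls and 9.60 and 9.14 in IL-33-deficient controls. After UUO it ran from 7.68 over a median of 8.18 to 9.09 in WT and read 7.88, 7.89, 7.82, 8.23 and 7.93 in IL-33-deficient kidneys. The groups did not overlap in either genotype, though in WT the margin was small, since kidney 3818 at 9.09 came close to control 3812 at 9.18. The log2 fold change was -1.08 ± 0.30 in WT (2.11-fold lower; adjusted p = 0.0231, limma) and -1.42 ± 0.31 in IL-33-deficient kidneys (2.67-fold lower; adjusted p = 0.00366).

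AQP4, which lets water leave principal cells and is also found in the straight proximal tubule of mice, was at 8.56 and 8.20 in WT controls and 8.42 and 8.23 in IL-33-deficient controls. It ran from 7.05 over a median of 7.15 to 8.32 in obstructed WT kidneys and read 7.49, 7.30, 7.14, 6.93 and 7.08 in IL-33-deficient kidneys. The highest WT value was that of kidney 3820, which lay between the 2 WT controls, while the next highest was 7.50. AQP4 fell by 1.02 ± 0.26 on the log2 scale in WT (2.03-fold lower; adjusted p = 0.0141, limma) and by 1.14 ± 0.27 in IL-33-deficient kidneys (2.20-fold lower; adjusted p = 0.00599). After obstruction most of its values lay close to the median gene at 7.05 and to the deleted IL33 (6.80 to 7.02 on IL-33-deficient arrays), so that its fold is compressed. With the lowest intensity of each array subtracted, AQP4 fell by 1.68 in WT and by 1.91 in IL-33-deficient kidneys.

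Single controls decided these calls. In WT, AQP2 and AQP4 lost theirs without control 3811, without control 3812, with set 1 alone and with only the 2 groups in the fit. In IL-33-deficient kidneys both lost theirs without control 3813 and with set 1 alone, as did AQP1. The sign stayed the same in all 27 alternatives.

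AQP11, an intracellular member of the proximal tubule whose loss is known to give polycystic kidneys in mice, read 8.76 and 8.91 in WT controls and 8.68 and 8.88 in IL-33-deficient controls. After UUO it ran from 7.42 over a median of 7.79 to 8.84 in WT and read 7.50, 7.34, 7.59, 7.42 and 7.48 in IL-33-deficient kidneys. The obstructed IL-33-deficient kidneys formed a narrow band well below their controls, whereas WT kidney 3820, at 8.84, lay among the WT controls. The log2 fold change was -0.87 ± 0.27 in WT (1.83-fold lower; adjusted p = 0.0401, limma) and -1.31 ± 0.28 in IL-33-deficient kidneys (2.49-fold lower; adjusted p = 0.00307). The WT call was close to the threshold and was lost in 16 of 27 alternatives, most of which left out a single array.

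AQP1, the constitutive channel of the proximal tubule and thin descending limb, read 12.53 and 12.53 in WT controls and 12.39 and 12.23 in IL-33-deficient controls. It ran from 11.14 over a median of 11.62 to 12.69 in obstructed WT kidneys and read 11.03, 10.93, 10.86, 11.00 and 11.39 in IL-33-deficient kidneys. In IL-33-deficient mice the groups were far apart, and AQP1 fell by 1.27 ± 0.30 (2.42-fold lower; adjusted p = 0.00599, limma). In WT the log2 fold change of -0.78 ± 0.29 missed the threshold (adjusted p = 0.0852), with kidney 3820 at 12.69 above both WT controls. Without kidney 3820, or with set 2 alone, AQP1 passed in WT too.

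**Figure D2:**
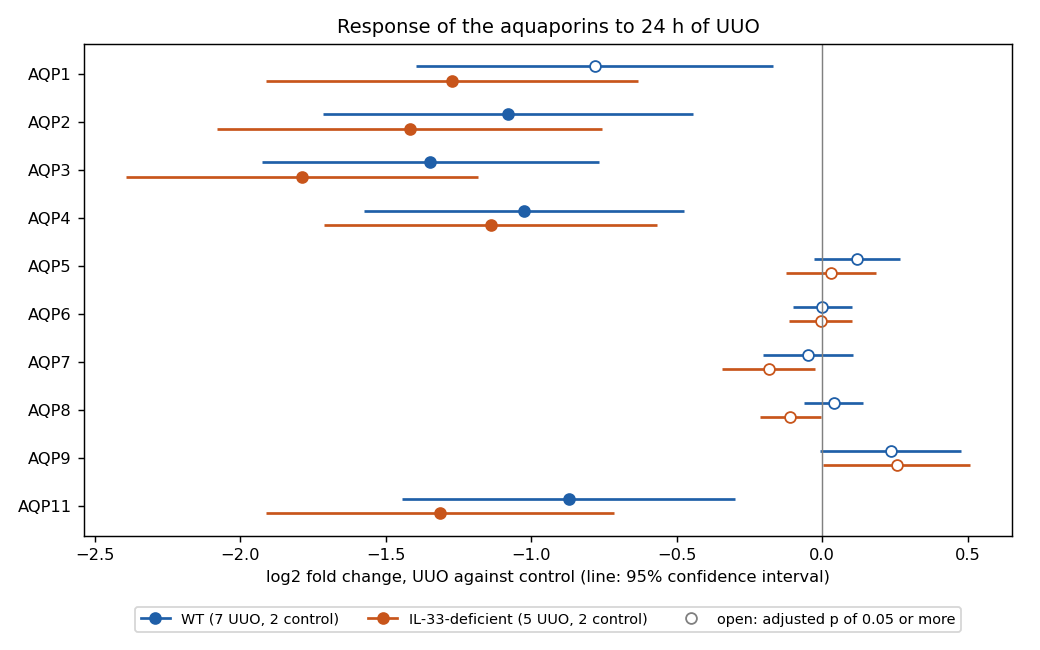
The x axis gives the log2 fold change of UUO against control for each of the 10 aquaporins on the y axis, with WT in blue and IL-33-deficient kidneys in orange. Lines are 95% confidence intervals of the limma fit and open points did not pass an adjusted p of 0.05. AQP3 is farthest from 0 in both genotypes, at -1.35 and -1.79, and the intervals of the genotypes overlap for every member.

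The remaining members did not pass the test in either genotype. AQP7, a glycerol channel of the straight proximal tubule, was between 7.55 and 7.91 on all 16 arrays, with a log2 fold change of -0.05 ± 0.07 in WT (95% confidence interval -0.20 to 0.11) and -0.18 ± 0.08 in IL-33-deficient kidneys (-0.35 to -0.02; adjusted p = 0.103, limma). AQP9, another glycerol channel, best known from liver and also made by leukocytes, read 6.71 to 6.91 in the 4 controls and 6.81 to 7.24 after UUO. Its log2 fold change was 0.24 ± 0.11 in WT (adjusted p = 0.206, limma) and 0.26 ± 0.12 in IL-33-deficient kidneys (adjusted p = 0.158). With background subtracted it was 0.71 in both genotypes, still short of the threshold (adjusted p = 0.112 and 0.104, limma). The summed intensity of 4 neutrophil markers moved the same way, from 486 to 843 in controls to 807 to 2711 after UUO. S100A8 passed the test in both genotypes and S100A9 in IL-33-deficient kidneys. CSF3R (0.03 in WT, 0.09 in IL-33-deficient kidneys) and MMP8 (0.04 and -0.04) did not pass, so the sum mainly follows S100A8 and S100A9. The part of neutrophils in the AQP9 values was not tested.

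AQP5, AQP6 and AQP8 stayed between 6.75 and 7.20 on every array, at or near the background of the table, where a change would be hard to see. AQP6, the intracellular channel of intercalated cells, differed between obstructed and control kidneys by a log2 of 0.00 in WT and -0.01 in IL-33-deficient mice. AQP5 differed by 0.12 and 0.03, and AQP8 by 0.04 and -0.11, in the same order. By their mean over the 16 arrays AQP1, AQP2, AQP3, AQP4, AQP7 and AQP11 were brighter than the median gene and the other 4 dimmer.

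**Figure D3:**
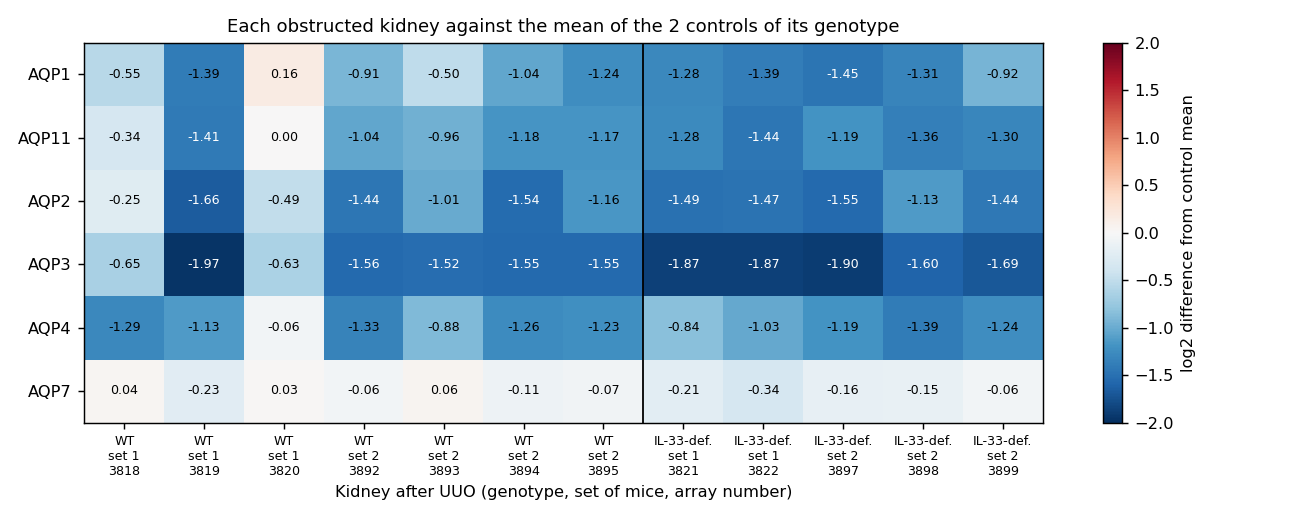
Rows are the 6 aquaporins brighter than the median gene, columns the 12 obstructed kidneys by genotype, set and array number. Color and printed value give the log2 value of the kidney less the average of the 2 controls with its genotype. WT kidneys 3818 and 3820 are paler than the rest for AQP2, AQP3 and AQP11. For AQP1 kidneys 3820, 3893 and 3818 are the palest, and for AQP4 kidney 3818 is as low as the others.

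Kidney by kidney, the members split in one respect. WT kidney 3820 differed from the WT control mean by 0.16 for AQP1, 0.00 for AQP11 and -0.06 for AQP4, and yet by -0.49 for AQP2 and -0.63 for AQP3. Kidney 3818 was at -0.55 for AQP1, -0.34 for AQP11, -0.25 for AQP2 and -0.65 for AQP3, but at -1.29 for AQP4. Kidney 3819, of the same set and genotype, had the lowest AQP1, AQP2, AQP3 and AQP11 of the WT kidneys, with AQP3 at -1.97. The 4 WT kidneys of set 2 lay close together for AQP3, between -1.56 and -1.52. With 3818 and 3820 left out, the WT log2 differences from control were -1.02 for AQP1, -1.36 for AQP2, -1.63 for AQP3, -1.17 for AQP4 and -1.15 for AQP11. The pair was picked for lying near the controls, so these larger values are a description with no test.

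In WT, 2 aquaporins (AQP2 and AQP3) had every obstructed kidney below both controls, as did 11.2% of all genes. For AQP1, AQP4 and AQP11 kidney 3820 was the only obstructed WT kidney not below both, at 12.69, 8.32 and 8.84. The share of all genes without this kidney was not computed. In IL-33-deficient kidneys 7 aquaporins did (AQP1, AQP2, AQP3, AQP4, AQP7, AQP8 and AQP11), as did 17.5% of all genes. For AQP8 the gap was a log2 of 7.03 in the lower control against 7.02 in the highest obstructed kidney.

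The genes that set or carry the water channels gave smaller changes, in both directions. Of 10 measured genes of vasopressin receptors and cAMP signaling, 2 fell and 1 rose in WT, and 3 fell and 1 rose in IL-33-deficient kidneys, with list medians of -0.07 and -0.02. Over all genes 8.22% fell and 6.97% rose in WT, and 11.2% fell and 10.6% rose in IL-33-deficient kidneys, so that 1 riser of 10 is near that share. AVPR1A, the vasopressin receptor that signals through calcium, fell by 0.44 ± 0.07 in WT and by 0.48 ± 0.07 in IL-33-deficient kidneys. ADCY6, the adenylyl cyclase of the collecting duct, fell by 0.37 ± 0.06 and by 0.33 ± 0.06. GNAS, the stimulatory G protein subunit, rose by 0.21 ± 0.07 and 0.40 ± 0.07, and PRKACA, a catalytic subunit of protein kinase A, fell by 0.13 ± 0.04 in IL-33-deficient kidneys. AVPR2, the receptor of principal cells that drives AQP2, was near background and its log2 fold change was -0.09 ± 0.06 and -0.03 ± 0.06, not past the test.

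Of 11 measured genes that move AQP2 vesicles none fell, and the same 3 rose in both genotypes, with list medians of 0.17 and 0.16, beside the 6.97% and 10.6% of all genes that rose. DYNLL1, a dynein light chain, rose by 0.65 ± 0.20 in WT and 0.86 ± 0.21 in IL-33-deficient kidneys. DCTN1, of the dynactin complex, rose by 0.49 ± 0.09 and 0.52 ± 0.10. ARHGDIB, a GDP dissociation inhibitor most abundant in leukocytes, rose by 0.45 ± 0.11 and 0.66 ± 0.11. Of 5 measured transcription factors of the collecting duct, 2 fell and 1 rose in both genotypes, beside the shares of all genes given above. GATA3 fell by 0.47 ± 0.10 and by 0.31 ± 0.10 and GATA2 by 0.31 ± 0.10 and by 0.42 ± 0.11. ELF3, an ETS factor of epithelia, rose by 0.51 ± 0.09 and 0.59 ± 0.10.

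The salt transporters that make the medulla hypertonic, the gradient along which aquaporins pass water gave the largest changes of these lists. Of the 6 genes of salt and urea transport reported here, 3 fell in each genotype. Over all genes 8.22% fell in WT and 11.2% in IL-33-deficient kidneys, shares that also stand beside the osmolyte and glycerol lists below. SLC12A1, the sodium-potassium-chloride cotransporter of the thick ascending limb, fell in both, with a log2 fold change of -3.12 ± 0.61 in WT and -3.13 ± 0.64 in IL-33-deficient kidneys. BSND, which encodes barttin, needed for salt to leave the same cells, fell by 1.86 ± 0.38 and by 1.82 ± 0.40. KCNJ1, the potassium channel that recycles potassium to the urine side, fell by 0.74 ± 0.12 and by 0.66 ± 0.12. The urea transporters SLC14A1 and SLC14A2 and uromodulin (UMOD) did not pass. Of 7 genes of osmolyte accumulation, SLC6A12, the betaine transporter, fell by 0.92 ± 0.09 and by 0.79 ± 0.10, and SLC5A3, the myo-inositol transporter, by 0.41 ± 0.06 and by 0.34 ± 0.07. Of 5 glycerol-handling genes, MGLL, which releases glycerol from monoglycerides, fell in IL-33-deficient kidneys by 0.70 ± 0.16, and its WT value was -0.40 ± 0.15 (adjusted p = 0.0916, limma).

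**Figure D4:**
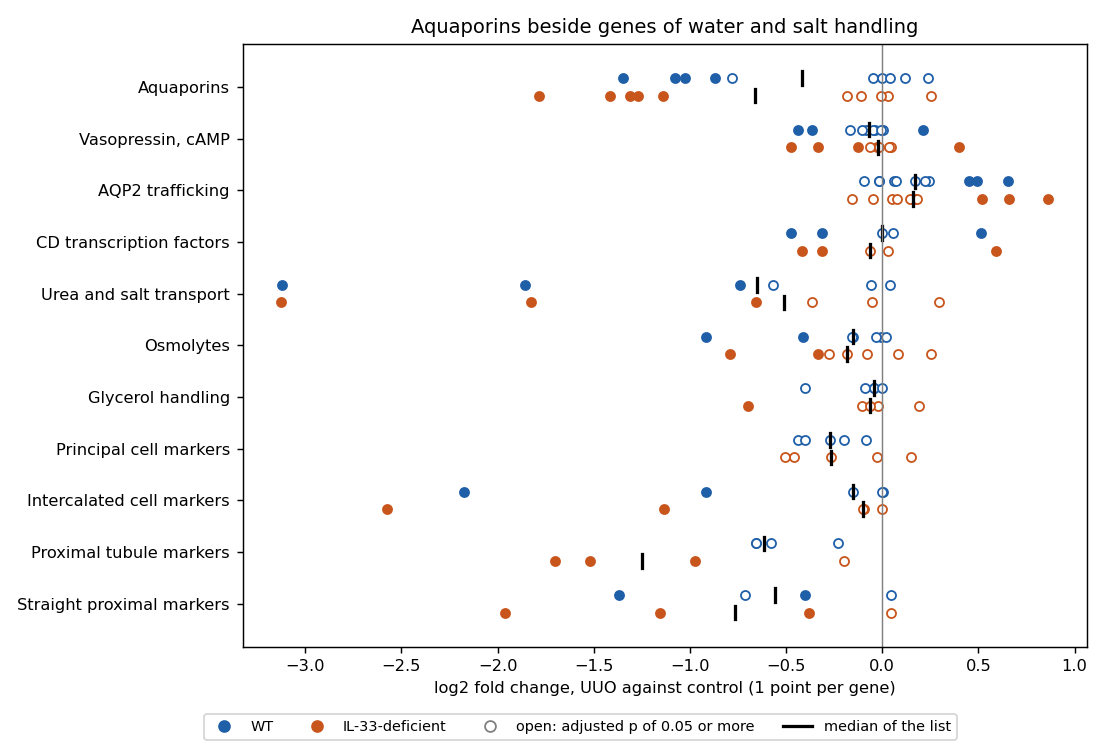
Each point is 1 gene, placed on the x axis by its log2 fold change of UUO against control, in rows for the aquaporins, 6 lists of water and salt handling genes and 4 lists of segment markers. Filled points passed an adjusted p of 0.05 and black bars are list medians. The aquaporin medians are -0.42 in WT and -0.66 in IL-33-deficient kidneys, the urea and salt transport medians -0.65 and -0.51, and those of AQP2 trafficking 0.17 and 0.16.

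In whole kidney RNA, fewer cells of a type and less RNA per cell cannot be told apart. Markers of the cells that hold these channels were therefore set beside them. Of 5 principal cell markers (SCNN1B, SCNN1G, HSD11B2, FXYD4 and AVPR2) none passed the test in either genotype, with list medians of -0.27 and -0.26. Their summed intensity was 2360 to 2772 in the 4 controls, 1683 to 2738 in obstructed WT and 1878 to 2286 in obstructed IL-33-deficient kidneys. The mean log2 of the 5 markers differed by -0.28 in WT and -0.22 in IL-33-deficient kidneys, beside -1.08 and -1.42 for AQP2 and -1.35 and -1.79 for AQP3. Taken on each array as the difference from this marker mean, a measure added after the data were seen, AQP2 and AQP3 of every obstructed kidney lay below every control of their genotype. For AQP4 this was so in IL-33-deficient kidneys and not in WT, where only kidney 3820, at -0.36, did not lie below both controls. The groups that did not overlap on this measure did not overlap before the subtraction either, and the marker mean moved less than these genes. This order was therefore largely set beforehand. Adjusted over 15 such tests (Benjamini-Hochberg), the exact permutation p was 0.119 for each of them. AVPR2 is near background, and without it the mean of the other 4 markers differed by -0.33 and -0.27, with the same members not overlapping. SCNN1G (-0.44 in WT, -0.46 in IL-33-deficient kidneys) and HSD11B2 (-0.40, -0.51) had the largest differences of the 5 markers.

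Proximal tubule markers were set beside AQP1 and AQP11. Of 4 measured of 6 markers (SLC34A1, LRP2, SLC5A2 and SLC22A6), 3 fell in IL-33-deficient kidneys and none passed in WT, where AQP1 did not pass and AQP11 did. Their summed intensity was 28930 to 30700 in controls, 11794 to 28568 in obstructed WT and 7509 to 16212 in obstructed IL-33-deficient kidneys. The mean log2 of these markers differed by -0.53 in WT and -1.10 in IL-33-deficient kidneys, beside -0.78 and -1.27 for AQP1 and -0.87 and -1.31 for AQP11. On the difference from this mean, AQP1 and AQP11 of obstructed and control kidneys overlapped in both genotypes. The 5 intercalated cell markers summed to 2396 to 2805 in controls and 1083 to 1803 after UUO, with SLC4A1 and SLC26A4 past the test in both genotypes. The other markers lay near the median gene and did not pass, so the sum mainly follows these 2. They were ATP6V1G3 (-0.15 in WT, -0.10 in IL-33-deficient kidneys), ATP6V0D2 (0.005, -0.001) and FOXI1 (-0.001, -0.10). AQP6, the channel of intercalated cells, was too dim to follow them. Red cell markers, which matter because erythrocytes carry AQP1, summed to 12581 to 20000 in controls and 3822 to 20391 after UUO, none of 4 passing, and their part in the AQP1 values was not tested. Endothelial markers, of the vessels that also hold AQP1, summed to 2566 to 3039 in controls and 2397 to 3130 after UUO, with none of 4 past the test. Of 4 straight proximal tubule markers 2 fell in WT and 3 in IL-33-deficient kidneys, a segment in which AQP7 did not pass. Beside these marker counts, 8.22% of all genes fell in WT and 11.2% in IL-33-deficient kidneys. Of 4 urothelial markers, of an epithelium that also makes AQP3, none passed in WT and 3 fell in IL-33-deficient kidneys, all near background. Of 4 fat cell markers none passed, and their sum was highest in WT kidney 3818, at 966, followed by IL-33-deficient kidney 3822 at 818, against 475 to 518 in controls.

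Between genotypes, 9 of 10 aquaporins read lower in IL-33-deficient than in WT kidneys after UUO, beside 48.1% of all genes. Among these 9, AQP5, AQP6 and AQP8 differed by only -0.07, -0.003 and -0.009, at or near background. No member met the study's threshold (a limma p of less than 0.05, no more than 0.25 after adjustment, and a change of over 1.3-fold). Over all genes 0.011% met it. The study applied it to a comparison with fewer WT kidneys, so this share cannot be set against the study's own count. At an unadjusted p under 0.05 in limma 3 of 10 aquaporins passed, all lower, beside 10.3% of all genes in either direction. AQP1 differed by -0.71 ± 0.23 (7 WT and 5 IL-33-deficient kidneys; 1.64-fold lower; adjusted p = 0.33, limma), with an exact two-sided permutation p of 0.0139. AQP11 differed by -0.50 ± 0.21 (adjusted p = 0.442; exact permutation p = 0.0442) and AQP3 by -0.48 ± 0.21 (adjusted p = 0.467; exact permutation p = 0.0644). These exact values are not adjusted for the number of members looked at. AQP2 differed by -0.31 ± 0.23 (95% confidence interval -0.80 to 0.18) and AQP4 by -0.17 ± 0.20 (-0.59 to 0.26), and for every member the 2 groups overlapped.

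The size of the genotype difference depended on the set of mice and on the pair of WT kidneys near the controls. AQP1 differed by -0.96 in set 1 (3 WT, 2 IL-33-deficient; exact permutation p = 0.2, where the smallest possible is 0.1) and by -0.53 in set 2 (exact permutation p = 0.0857, 4 and 3 kidneys). AQP3 differed by -0.82 in set 1 and -0.22 in set 2, and AQP11 by -0.83 and -0.25. For AQP3 and AQP11 the groups did not overlap within set 2, the IL-33-deficient kidneys being lower, as for 4.33% of all genes. That order gives the smallest exact permutation p that 3 against 4 kidneys allow, 0.0286. AQP2 differed by -0.65 in set 1 and by -0.05 in set 2. Without WT kidneys 3818 and 3820 the differences were -0.48 for AQP1, -0.02 for AQP2, -0.20 for AQP3, -0.03 for AQP4 and -0.22 for AQP11, and again no member met the threshold. Without WT kidney 3819, the lowest WT kidney for AQP1, AQP2, AQP3 and AQP11, 3 members (AQP1, AQP3 and AQP11) met it, among 309 of all genes. The proximal tubule markers moved with AQP1 here, their mean log2 differing by -0.60 between genotypes after UUO, whereas that of the principal cell markers differed by 0.01.

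**Figure D5:**
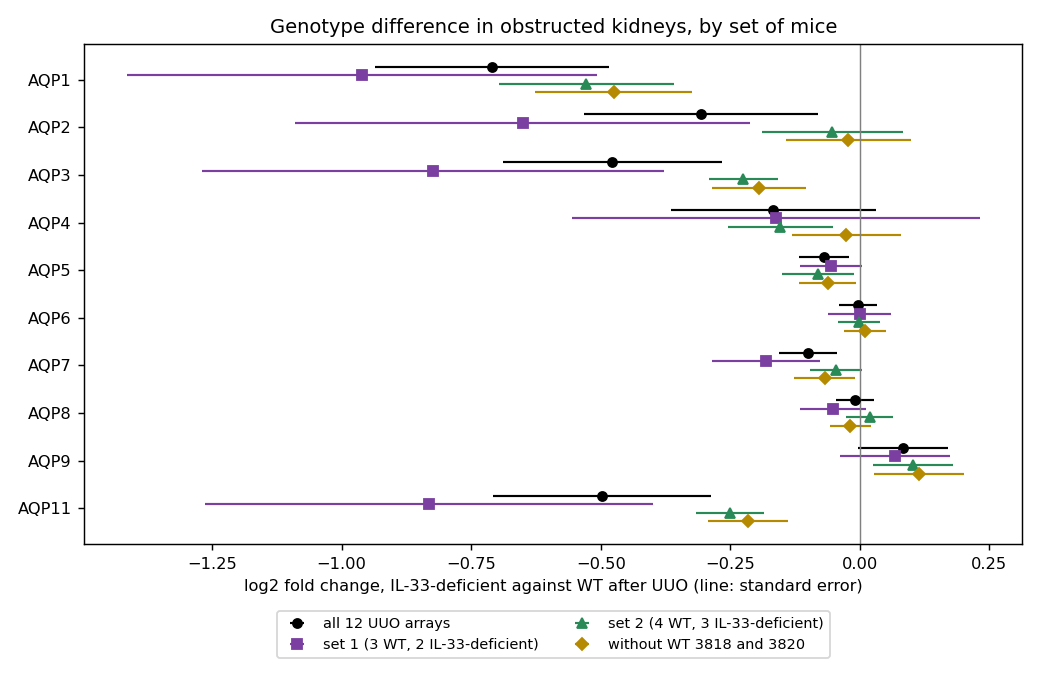
The x axis gives the log2 difference of obstructed IL-33-deficient from obstructed WT kidneys for each aquaporin on the y axis, with lines for the standard error. Black circles use all 12 kidneys, squares set 1, triangles set 2, and diamonds leave out WT kidneys 3818 and 3820. AQP1 stays below 0 in all 4, from -0.96 to -0.48, as do AQP2, AQP3, AQP4, AQP5, AQP7 and AQP11. AQP2 moves from -0.65 in set 1 to -0.05 in set 2.

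The test of whether the response to UUO itself differed between genotypes called no aquaporin and 0% of all genes at an adjusted p of 0.05 in limma. At an unadjusted p under 0.05 it called 1 aquaporin, the dim AQP8, beside 4.74% of all genes. For AQP1 the responses differed by -0.49 ± 0.41 (95% confidence interval -1.38 to 0.40), for AQP3 by -0.44 ± 0.39 (-1.28 to 0.40) and for AQP11 by -0.44 ± 0.39 (-1.27 to 0.39). All 3 intervals include 0. In control kidneys the genotypes likewise gave 0 calls among the aquaporins and 0% over all genes, and 1 aquaporin at an unadjusted p under 0.05, again AQP8, beside 3.66% of all genes. AQP8 read 7.05 and 7.03 in IL-33-deficient controls against 6.93 and 6.88 in WT controls, a log2 difference of 0.14 ± 0.06 at the level of background (adjusted p = 1, limma). AQP1 differed by -0.22 ± 0.36 between control genotypes, and AQP2, AQP3, AQP4 and AQP11 by between -0.05 and 0.03.

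The profiles of the 5 aquaporins that fell were compared over all 16 arrays. With each gene's mean set to 0, AQP1 and AQP11 differed by a root mean square of 0.21 on the log2 scale and AQP2 and AQP3 by 0.22, the smallest of the 10 pairs, followed by AQP3 and AQP11 at 0.25. AQP4 was farther from the others, at 0.32 from its nearest. The 3 genes of the whole table most like AQP1 by this measure were GSTZ1, an enzyme of tyrosine breakdown, C8G and PXMP2. Those most like AQP11 were BHMT2, a homocysteine methyltransferase, QDPR, which recycles tetrahydrobiopterin, and TNFAIP8. AQP3 was closest to PAQR7, a progestin receptor of the membrane, PBLD and ACSS1, a mitochondrial acetyl-CoA synthetase. AQP2 was closest to PPARGC1A, a coactivator of mitochondrial genes, ALDH4A1 and SMARCA2, and AQP4 to ARHGAP18, TRP53BP2 and METTL7A2. The differences from these nearest genes were 0.15 for AQP1, 0.11 for AQP11, 0.15 for AQP3, 0.19 for AQP2 and 0.17 for AQP4, over profiles that spanned 1.57 to 2.12. All of these profiles share the same 16 arrays and the contrast between obstructed and control kidneys.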

How the data were processed

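Intensities of 18132 genes on 16 arrays were used as deposited. The authors imported the BeadChips with beadarray, and the processing notes name BeadStudio 2. The deposited intensities are linear, 1 per gene. Background correction, normalization and the joining of probes are not given in the sources used here. Between arrays, values at the same rank were a median of 0.708% apart, so the arrays had been made alike beforehand. The precision is limited by the number of arrays, 2 per control group, and all p-values measure the spread between kidneys.

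Intensities were quantile-normalized, taken to log2 and fitted in R 4.3.3 by limma 3.58.1 (lmFit, eBayes). The 4 group means of 16 arrays formed one model with Benjamini-Hochberg adjustment over all genes, called at an adjusted p of 0.05. IL-33-deficient and WT kidneys after UUO were compared over 12 arrays at the study's threshold, which the study applied to a comparison with fewer WT kidneys. Exact two-sided permutation tests counted every split of the arrays. The fits were first tested on simulated data. Promoters were scanned with Python 3.11.15, and plots drawn with matplotlib 3.10.9.

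The members and gene lists were chosen with earlier results of these data known, and 2 further genes of the salt transport list, left out whatever their values, are not reported here. All aquaporins, the 2 genes of each list with the largest called change and the 3 genes most like each called member were named. AVPR2, ADCY6, PRKACA, DCTN1, GATA2, KCNJ1, UMOD, SLC14A1, SLC14A2 and the marker genes lie outside this rule and were named after their values were seen. Alternatives were other normalizations, background subtraction, array weights, a variance trend, brighter genes, each array left out, each set alone, a set block and other fits.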

Additional observations from a re-analysis of the deposited data

Results flagged for a closer look

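Of 20 groups of obstructed kidneys searched (10 aquaporins, 2 genotypes), 2 held an array whose gap to its nearest neighbor was large for the range of its group, where chance gives about 1 in 20. AQP4 was at a log2 intensity of 8.32 in WT kidney 3820, with the next WT kidney at 7.50 and the lowest at 7.05. This kidney also had the lowest HAVCR1 of the obstructed kidneys, and the part of the extent of injury in its AQP4 value was not tested. AQP2 was at 8.23 in IL-33-deficient kidney 3898, with the next at 7.93 and the lowest at 7.82. In that kidney AQP3 was also the highest of its group, at 7.83, and AQP4 the lowest, at 6.93.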

How the results depend on the processing

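The number of aquaporins called after UUO depended most on the controls and on set 1. In WT the 4 calls became 0 with set 1 alone, when 107 of all genes were called lower instead of 1491. They became 1 (AQP3) with only the 2 groups in the fit, when 969 of all genes were called lower. Leaving out single arrays gave 0 to 5, with 0 without control 3811, 1 (AQP3) without control 3812, and 5 without kidney 3820. In IL-33-deficient kidneys the 5 calls became 1 (AQP3) with set 1 alone, and leaving out single arrays gave 2 to 5, the 2 being AQP3 and AQP11 without control 3813. With set 1 alone 1144 of all genes were called lower in IL-33-deficient kidneys, instead of 2039. A lone control was assumed to vary like the other groups. Between genotypes after UUO the 0 calls became 1 (AQP1) among brighter genes only and 1 (AQP1) with 4 groups in one model. Leaving out single arrays gave 0 to 3 there, the 3 being AQP1, AQP3 and AQP11 without WT kidney 3819, when 309 of all genes passed. The difference in response and the control comparison gave 0 aquaporins in every alternative run. No call changed direction, and the cause of these changes was not tested. Background subtraction widened the folds, AQP3 to -1.70 in WT and -2.35 in IL-33-deficient kidneys. No paired analysis was run, because the labels give no pairing of kidneys between groups.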
